A study of Caenorhabditis elegans with 12 samples.

Results

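The 9 genes described here were grouped as gut proteases of the worm: the aspartyl proteases asp-1, asp-2, asp-3, asp-5, asp-6 and asp-10, and the cathepsin B-like cysteine proteases cpr-1, cpr-4 and cpr-5. They were taken by name from the 20222 genes listed in each table, all 9 were found, and all 9 were among the 13650 genes that had at least 1 TPM in at least 3 libraries. TPM is a level corrected for exon length and scaled so that every library has the same sum. The animals were read whole, so the tables do not show which tissue a transcript came from. Polyadenylated RNA came from whole Caenorhabditis elegans on day 1 of adulthood, fed E. coli OP50 at 20 °C. The 4 strains were N2, the laboratory wild type; AV477, which carries dsb-2(me96); AV157, which carries spo-11(me44); and TY4986, which carries htp-3(y428). Each strain gave 3 libraries, described as biological replicates, and strains are named below by their mutated gene. Each mutation was present in 1 strain, so its effect and that of the rest of the strain's genome cannot be told apart. The RNA of all tissues, germ line included, was read together, so more cells of a type and more RNA per cell cannot be told apart.

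Aspartyl proteases of the cathepsin D type and cysteine proteases of the cathepsin B type are made as inactive precursors, pass through the secretory pathway and work best at acid pH. In the worm, which feeds on bacteria, intestinal cells secrete some of them into the gut lumen to digest food and send others to lysosomes, where proteins taken up or produced by the cell are broken down. In these enzymes a pair of aspartates or a cysteine performs the cut, and the cysteine enzymes are held in check by cystatins. The study's question was how meiotic dysfunction relates to ageing of the soma. The 3 mutated genes act in the germ line: spo-11 for the enzyme that cuts DNA in meiosis, dsb-2 for a factor that promotes those breaks and htp-3 for a protein of the meiotic chromosome axis.

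Of the 9 genes, 8 (88.9%) lie on chromosome V and asp-3 lies on X, against 25.1% of all listed genes on V. Of the 25 listed genes named asp or cpr with a number, 20 (80.0%) lie on V. In WBcel235 coordinates as the authors' tables give them, asp-6 (8267511 to 8268937, minus strand) and asp-5 (8272375 to 8274046, plus strand) flank asp-12, another aspartyl protease gene, with 316 bases on each side of it. The gene cpr-5 (1132598 to 1134036, minus strand) is separated by 448 bases from cpr-8 (plus strand), another cathepsin B-like gene. The gene asp-1 (19049461 to 19050825, minus strand) lies at the end of a run of 4 aspartyl protease genes on one strand, which begins with asp-17 at 19035753. The others are asp-2 (V, 9199680 to 9204734), asp-10 (V, 12742041 to 12744207), cpr-1 (V, 11975515 to 11976756), cpr-4 (V, 6614674 to 6615845) and asp-3 (X, 6791064 to 6792715). The annotated ends of asp-2 and asp-10 overlap a gene of the opposite strand, inx-10 by 32 bases and C15C8.7 by 43 bases, and whether counting used strand is not given in the sources used here. How reads that match several similar members of the family were assigned is not given either, and such reads were not measured here.

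Depth was 32422219 to 42527086 mapped reads per library, and a protease value rested on at least 971 reads, the asp-10 count in spo-11 replicate 3. Of all genes tested, limma with Benjamini-Hochberg adjustment called 36 (0.264%) different at an adjusted p under 0.05 in dsb-2 against N2, 10594 (77.6%) in spo-11 against N2 and 8081 (59.2%) in htp-3 against N2. Over all genes the log2 fold changes had medians of 0.02, 0.80 and 0.27 in these comparisons. Rescaling TPM by median-of-ratios size factors, which set the typical gene present in all libraries as unchanged, moved the medians in spo-11 and htp-3 to 0.16 and 0.07. These medians also rest on how low values are treated: in spo-11 the median was 0.35 with no filter, 0.29 at a minimum of 5 TPM, 0.38 with a pseudocount of 5 and 1.02 with one of 0.1. The rescaling changed the split of higher and lower calls from 7584 and 3010 to 6033 and 5449 in spo-11, and from 5397 and 2684 to 4213 and 4743 in htp-3. The dsb-2 and htp-3 transcripts were lower in their own strains (log2 fold changes -1.61 and -2.82), but the spo-11 transcript, at 36.2 ± 2.18 TPM in its own strain and 33.3 ± 11.2 TPM in N2 (SD, n = 3 each), was not called (log2 fold change 0.16), so it does not check that strain's label. Under median-of-ratios scaling it was called lower (-0.65, adjusted p = 0.00685).

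Together the 9 transcripts were abundant in every strain and most abundant in spo-11 and htp-3. They summed to 5580, 6276 and 6419 TPM in N2 replicates 1, 2 and 3, and to 7040, 4999 and 6519 TPM in dsb-2. The sums were 14858, 19398 and 15170 TPM in spo-11 and 19406, 14449 and 10987 TPM in htp-3. Every spo-11 and htp-3 library was above every N2 and dsb-2 library. The most abundant member in all 12 libraries was asp-1, which ranked 116 among all listed genes by mean TPM in N2, 9 in spo-11 and 13 in htp-3. Within spo-11 replicate 2 was highest for 8 of 9 genes, and within htp-3 replicate 1 was highest for 8 and replicate 3 lowest for 8.

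**Figure D1:**
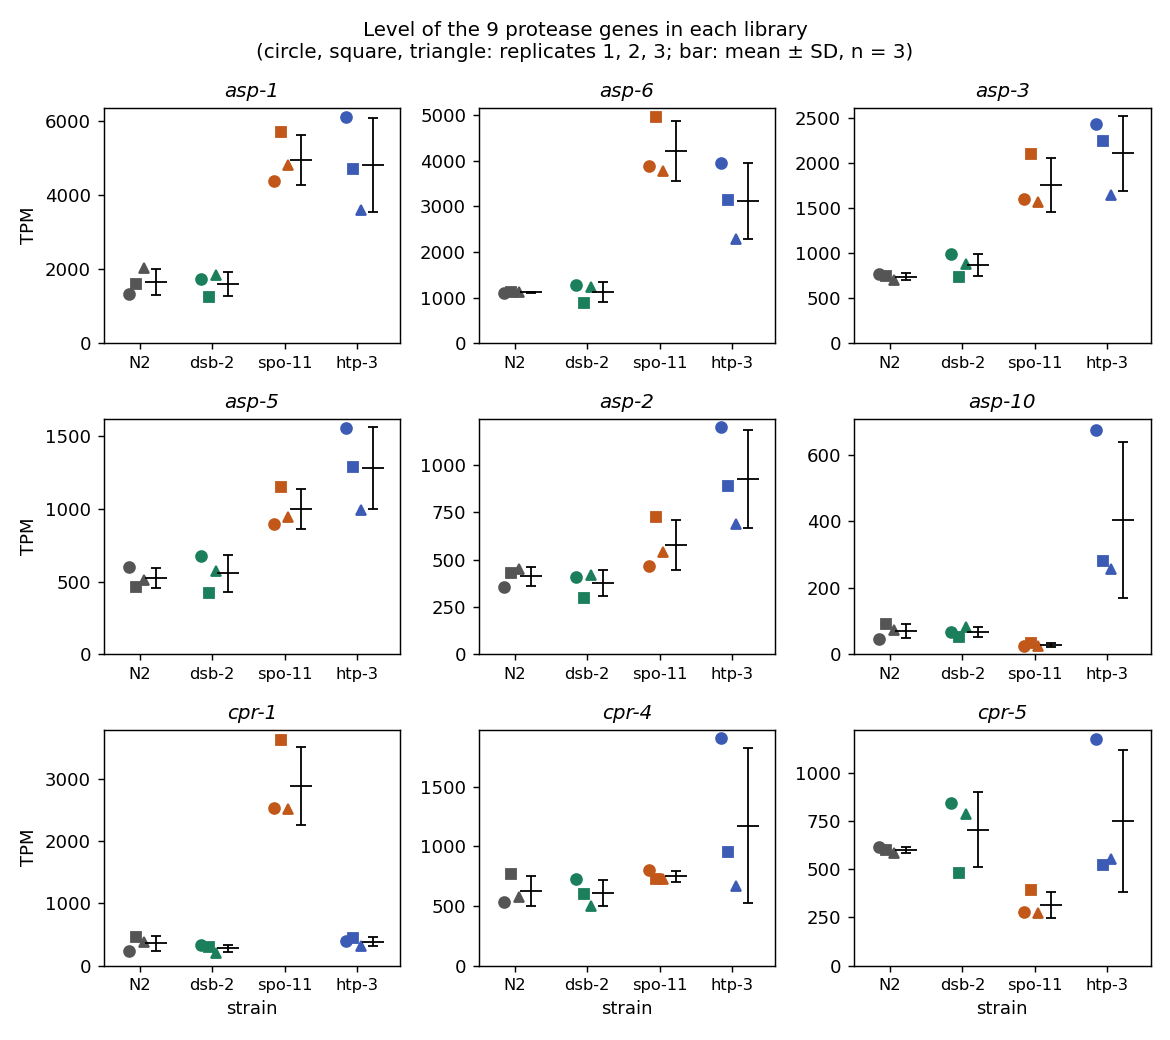
Each panel shows 1 gene, with the TPM of each library on a linear axis from 0, the strain on the other axis, the 3 replicates as symbols and the mean ± SD beside them. The genes asp-1, asp-3, asp-5 and asp-6 were high in both spo-11 and htp-3, asp-10 was high in htp-3 and lowest in spo-11, and cpr-1 stood at 2518 TPM or above in the spo-11 libraries.

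In dsb-2 none of the 9 genes passed the test against N2. Limma called 0 of 9 higher and 0 of 9 lower, against 0.19% and 0.0733% of all genes. At an unadjusted p under 0.05 there were 0 of 9, against 10.6% of all genes. By limma-voom 0 of 9 were called as well, with no all-gene share given here. With 9 genes, counts of 0 beside such shares are no result about the group. Their log2 fold changes lay between -0.34 (cpr-1) and 0.22 (asp-3), with a median of -0.04. The libraries of both strains overlapped for all 9 genes, and the share of all genes with such overlap was not computed. The 95% interval of the asp-1 fold change ran from -0.48 to 0.40 and that of the cpr-1 fold change from -0.85 to 0.18.

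In spo-11, 5 of 9 genes (asp-1, asp-3, asp-5, asp-6 and cpr-1) rose and 2 (asp-10 and cpr-5) fell against N2, where 55.6% of all genes rose and 22.1% fell. The median of the 9 log2 fold changes was 0.93, beside 0.80 for all genes, a value that the filter and pseudocount move as given above. In htp-3, 7 of 9 rose (the 6 aspartyl genes and cpr-4) and 0 fell, where 39.5% of all genes rose and 19.7% fell, and the median was 1.27 beside 0.27. The 2 comparisons share the N2 libraries. In spo-11 the rises of asp-5, asp-3, asp-1, asp-6 and cpr-1 were above the fold changes of 52.9%, 61.2%, 71.2%, 78.3% and 92.9% of all genes tested. For the genes called in htp-3 these shares ran from 71.3% (cpr-4) to 99.0% (asp-10). Under median-of-ratios scaling the counts were 3 higher and 2 lower in spo-11 and 6 higher and 0 lower in htp-3. Of all 13650 genes, 6033 were then higher and 5449 lower in spo-11, and 4213 higher and 4743 lower in htp-3.

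**Figure D2:**
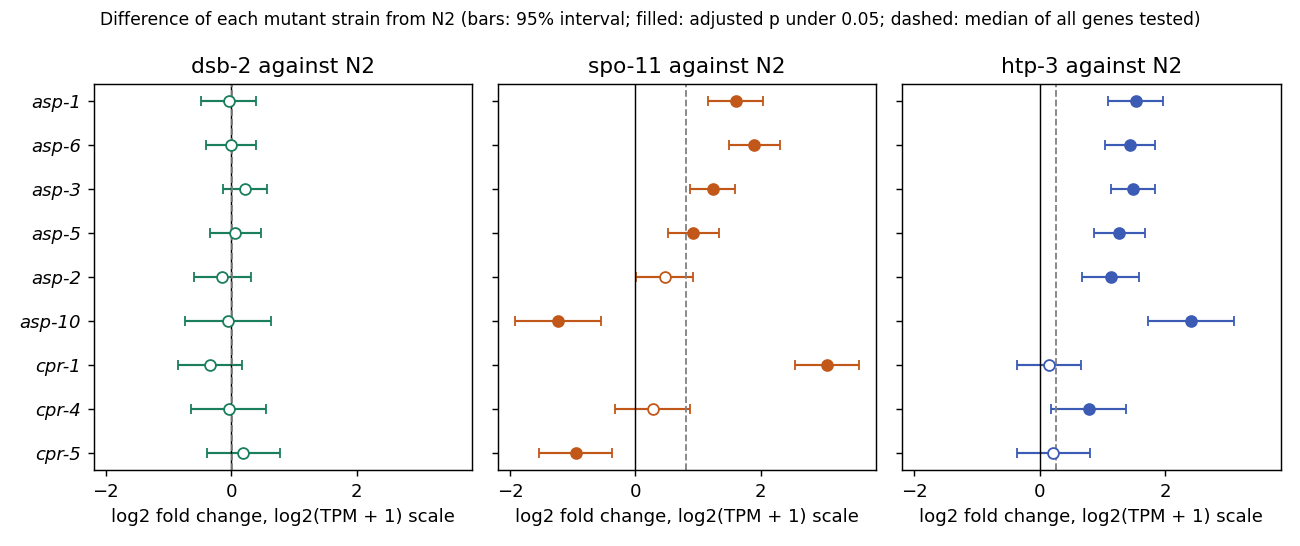
Points are log2 fold changes against N2 on the log2(TPM + 1) scale for each gene, bars are 95% intervals from limma, filled points had an adjusted p under 0.05 and the dashed line is the median of all genes tested. No point is filled in dsb-2, asp-10 lies on opposite sides of 0 in spo-11 (-1.23) and htp-3 (2.42), and cpr-1 is the highest point in spo-11 (3.06) and is close to 0 in htp-3 (0.15).

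The gene asp-1 encodes an aspartyl protease made mainly in intestinal cells. It was at 1323, 1598 and 2021 TPM in N2 replicates 1 to 3 and at 1737, 1239 and 1838 TPM in dsb-2. In spo-11 it was at 4367, 5694 and 4804 TPM and in htp-3 at 6118, 4699 and 3598 TPM. All libraries of the last 2 strains were above all those of the first 2. The mean was 3.01 times that of N2 in spo-11 (log2 fold change 1.60 ± 0.21, SE; limma adjusted p = 4.09e-06) and 2.92 times in htp-3 (1.53 ± 0.21; adjusted p = 4.90e-05). Under median-of-ratios scaling these were 0.76 and 1.11, both still called. Between spo-11 and htp-3 asp-1 differed by -0.07 (htp-3 minus spo-11, adjusted p = 0.814), with a 95% interval of -0.51 to 0.37.

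The gene asp-6, the second most abundant aspartyl member, rose in both strains. It was nearly level across N2 at 1106, 1120 and 1127 TPM, and was at 1278, 876 and 1228 TPM in dsb-2. In spo-11 it was at 3891, 4956 and 3773 TPM and in htp-3 at 3944, 3127 and 2285 TPM, so those 2 strains overlapped and both were above N2. The log2 fold change was 1.90 ± 0.19 in spo-11 (SE; limma adjusted p = 2.85e-07) and 1.44 ± 0.19 in htp-3 (adjusted p = 3.99e-05), or 1.06 and 1.02 under median-of-ratios scaling. The difference of htp-3 from spo-11 was -0.46 (adjusted p = 0.0596), and it passed the threshold without htp-3 replicate 1 (-0.64, adjusted p = 0.0141), but was -0.04 under median-of-ratios scaling.

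The gene asp-3 encodes a lysosomal protease related to cathepsin D that takes part in necrotic death of worm neurons. It was at 770, 750 and 703 TPM in N2 and at 987, 736 and 884 TPM in dsb-2. In spo-11 it was at 1599, 2100 and 1572 TPM and in htp-3 at 2440, 2252 and 1644 TPM. The 6 libraries of spo-11 and htp-3 were all above the others. It rose by 1.23 ± 0.17 in spo-11 (log2, SE; limma adjusted p = 6.69e-06), a call lost under median-of-ratios scaling (0.39, adjusted p = 0.152), and by 1.49 ± 0.17 in htp-3 (adjusted p = 1.17e-05), where it was kept (1.07).

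The gene asp-5, near asp-6 on the chromosome, had smaller changes. N2 libraries held 598, 464 and 511 TPM, dsb-2 libraries 673, 423 and 572 TPM, spo-11 libraries 897, 1152 and 945 TPM and htp-3 libraries 1557, 1287 and 993 TPM. Both spo-11 and htp-3 were above N2 in every library. The log2 fold change was 0.93 ± 0.19 in spo-11 (SE; limma adjusted p = 0.000402) and 1.27 ± 0.19 in htp-3 (adjusted p = 0.000110). The spo-11 value was 0.09 and not called under median-of-ratios scaling, and not called under upper-quartile scaling (0.65, adjusted p = 0.0501), while in htp-3 it was 0.84 and called under the former.

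The gene asp-2 rose in htp-3 and did not pass the test in spo-11. It was at 356, 427 and 452 TPM in N2, 410, 298 and 421 TPM in dsb-2, 467, 723 and 537 TPM in spo-11, and 1197, 885 and 686 TPM in htp-3. The spo-11 libraries were just above those of N2, and the htp-3 libraries were clear of N2 but overlapped with spo-11. The log2 fold change was 1.13 ± 0.21 in htp-3 (SE; limma adjusted p = 0.000486) and 0.47 ± 0.21 in spo-11 (adjusted p = 0.0548). The spo-11 value was called without spo-11 replicate 1 (0.61, adjusted p = 0.0298) and was -0.37 under median-of-ratios scaling. The difference of htp-3 from spo-11 was 0.67 (adjusted p = 0.0168), and 0.46, 0.53 and 0.63 with no call left when htp-3 replicate 1, spo-11 replicate 1 or spo-11 replicate 3 was left out.

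The aspartyl protease gene asp-10, the least abundant of the 9 in N2, dsb-2 and spo-11, moved in opposite directions in the 2 strains. It was at 46.9, 90.2 and 72.8 TPM in N2 and at 66.3, 50.8 and 81.4 TPM in dsb-2. In spo-11 it was at 24.8, 34.5 and 26.3 TPM, below every N2 library, and in htp-3 at 675, 279 and 257 TPM, above every N2 library. It fell in spo-11 (log2 fold change -1.23 ± 0.32, SE; limma adjusted p = 0.00268) and rose in htp-3 (2.42 ± 0.32; adjusted p = 4.67e-05). The direct difference of htp-3 from spo-11 was 3.65 ± 0.32 (adjusted p = 2.02e-07), above that of 99.96% of all genes tested, and the ratio of the means was 14.2. Under every alternative run these 3 calls and their directions were kept, with ranges of -2.04 to -1.02, 1.97 to 2.67 and 3.20 to 4.04. The htp-3 mean rests in part on replicate 1, without which the log2 fold change against N2 was 1.97.

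Among the cysteine members, cpr-1, first described as a gut-specific protease gene, had the largest rise of the 9 in spo-11. It was at 232, 459 and 374 TPM in N2, 323, 294 and 208 TPM in dsb-2, and 393, 450 and 310 TPM in htp-3. In spo-11 it was at 2535, 3621 and 2518 TPM. The first 3 strains overlapped, and every spo-11 library was above all of the others. Its mean in spo-11 was 8.14 times that in N2 (log2 fold change 3.06 ± 0.24, SE; limma adjusted p = 2.81e-08), with a range of 2.22 to 3.27 over the alternatives run, all called. In htp-3 it was 0.15 ± 0.24 (adjusted p = 0.595), and the direct difference of htp-3 from spo-11 was -2.90 ± 0.24 (adjusted p = 1.23e-07). Its rank by mean TPM among all listed genes was 390 in N2 and 38 in spo-11.

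The gene cpr-5, a further cathepsin B-like gene, fell in spo-11. It was at 616, 599 and 582 TPM in N2 and 844, 482 and 788 TPM in dsb-2. In spo-11 it was at 275, 394 and 273 TPM and in htp-3 at 1176, 520 and 551 TPM. The spo-11 libraries were below all others, while htp-3 straddled N2 with replicate 1 high. The log2 fold change was -0.95 ± 0.27 in spo-11 (SE; limma adjusted p = 0.00513) and 0.22 ± 0.27 in htp-3 (adjusted p = 0.503), and htp-3 was above spo-11 by 1.17 ± 0.27 (adjusted p = 0.00242). The fall in spo-11 ranged from -1.79 to -0.86 over the alternatives and its adjusted p stayed under 0.05 in each, though its size is under a fold change of 2.

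The gene cpr-4 encodes a secreted cathepsin B-like protease that has been described in worms as a signal released after irradiation. It was at 532, 770 and 576 TPM in N2, 723, 599 and 500 TPM in dsb-2, 802, 723 and 722 TPM in spo-11 and 1906, 949 and 663 TPM in htp-3. The strains overlapped, and htp-3 replicate 1 stood far above the rest. In spo-11 the log2 fold change was 0.28 ± 0.28 (SE; limma adjusted p = 0.374, 95% interval -0.32 to 0.87). In htp-3 it was 0.78 ± 0.28 (adjusted p = 0.0258), a call that ended without htp-3 replicate 1 (0.36, adjusted p = 0.151), N2 replicate 1 (0.67, adjusted p = 0.0918) or N2 replicate 3 (0.73, adjusted p = 0.0666), and under median-of-ratios scaling (0.36, adjusted p = 0.340). It also ended under upper-quartile scaling (adjusted p = 0.0809), with no filter (0.0637) and with only those strains in the fit (0.0541), so that 9 of 17 alternatives kept it.

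The order of the strains therefore differed between genes. Mean TPM placed htp-3 first and spo-11 next for asp-2, asp-3, asp-5 and cpr-4, and spo-11 first and htp-3 next for asp-1, asp-6 and cpr-1. For asp-3, asp-5, asp-1, asp-6 and cpr-4 those 2 neighbours did not differ past the threshold, and for asp-2 and cpr-1 they did. For asp-10 and cpr-5 htp-3 was first and spo-11 last. In all 9 genes dsb-2 and N2 were neighbours and did not differ past the threshold. In the direct comparison of htp-3 with spo-11, in which 46.7% of all genes were called, 3 of 9 genes were higher in htp-3 (asp-2, asp-10 and cpr-5), where 8.1% of all genes were, and cpr-1 was lower, where 38.6% of all genes were. Under median-of-ratios scaling 6 were higher, with asp-3 (0.67), asp-5 (0.76) and cpr-4 (0.92) added. The same 3 were called without htp-3 replicate 3 (0.43, 0.51 and 0.85; adjusted p = 0.0475, 0.0490 and 0.0137), and under the rescaling over all genes the split moved from 1106 higher and 5264 lower to 3062 and 3603. Against dsb-2 in place of N2, where 79.7% of all genes were called in spo-11 and 64.6% in htp-3, spo-11 had 6 higher and 2 lower (55.9% and 23.8% of all genes) and htp-3 had 7 higher and 0 lower (41.6% and 23% of all genes). The added gene in spo-11 was asp-2 (0.61), which lay at -0.23 under median-of-ratios scaling. Its call also ended without dsb-2 replicate 2 (0.45, adjusted p = 0.0821), without spo-11 replicate 2 (0.43, adjusted p = 0.0932) and under upper-quartile scaling (0.44, adjusted p = 0.165). The cpr-4 call in htp-3 against dsb-2 (0.82) ended without htp-3 replicate 1 (0.40, adjusted p = 0.104), without dsb-2 replicate 3 (0.69, adjusted p = 0.0714), under median-of-ratios scaling (0.40) and with only those strains in the fit (adjusted p = 0.0533).

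Ratios within a library do not depend on how libraries are scaled, and they show unequal change among the members. Summed TPM of the 6 aspartyl genes was 2.44 to 3.19 times that of the 3 cysteine genes in N2, 2.63 to 3.36 times in dsb-2 and 3.09 to 3.32 times in spo-11. In htp-3 the ratio was 4.58, 6.53 and 6.21, above every other library. In spo-11 cpr-1 made up 16.6 to 18.7% of the summed TPM of the 9 genes, against 4.16 to 7.31% in N2 and 2.03 to 3.12% in htp-3. The share of cpr-5 was 1.80 to 2.03% in spo-11, against 9.06 to 11.04% in N2, and that of asp-6 was 24.9 to 26.2% against 17.6 to 19.8%. Summed TPM of the 3 cysteine genes lay between 3513 and 4739 in spo-11 and between 1380 and 1827 in N2, with cpr-1 higher, cpr-5 lower and cpr-4 not called.

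**Figure D3:**
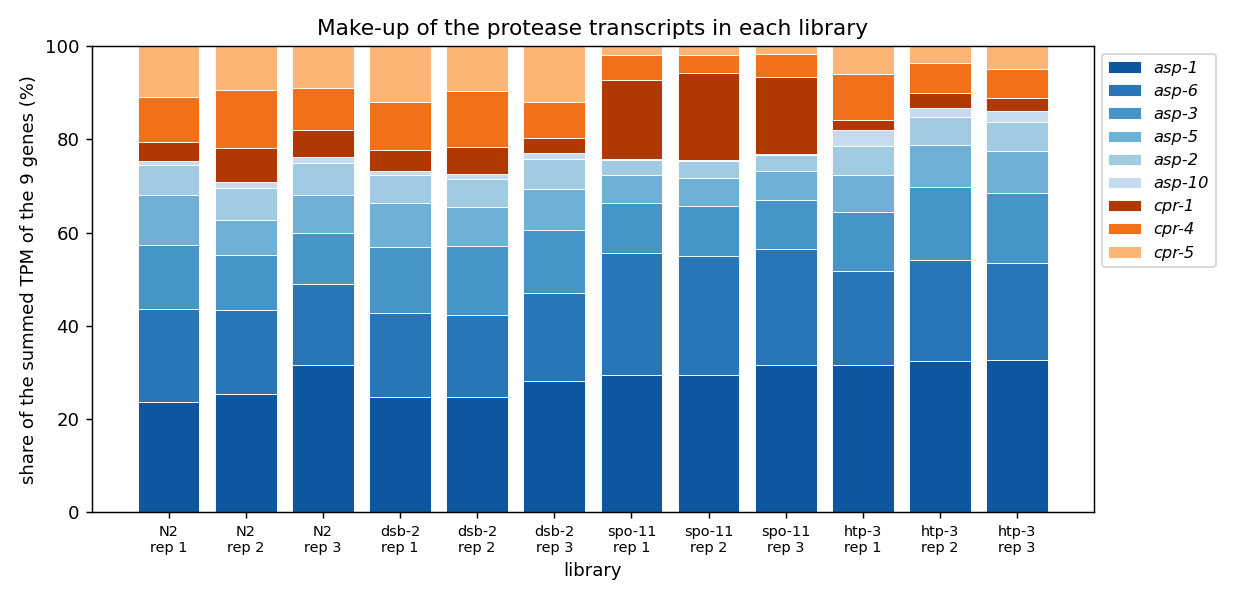
Each bar is 1 library, split into the share of the summed TPM of the 9 genes in percent, with aspartyl genes in blue and cysteine genes in orange. The cpr-1 share of 16.6 to 18.7% marks the 3 spo-11 libraries, and the smaller cysteine share marks the 3 htp-3 libraries.

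Across the 12 libraries asp-1, asp-2, asp-3, asp-5 and asp-6 followed one another, with Pearson's r of log2(TPM + 1) between 0.77 and 0.98 over 10 pairs. The pair asp-3 and asp-5 had the highest (0.98), and cpr-1 and cpr-5 the lowest of all 36 pairs (-0.76). After each strain's mean was subtracted, all 36 pairs had r above 0 (0.07 to 0.95, median 0.72). These values are descriptions over 12 libraries, in which the members share library, depth and scaling. Outside the family, the gene most like asp-1 over the 12 libraries was clec-83 (r = 0.99), and for both asp-3 and asp-5 it was clec-62 (0.99 and 0.97), among 8984 genes with a mean of at least 5 TPM. For asp-2 it was sago-2 (0.97), for asp-6 B0403.3 (0.99), for asp-10 gba-4 (0.97) and for cpr-1 K11H12.6 (0.98). The closest genes were less alike for cpr-4 (C17F4.7, 0.89) and cpr-5 (ant-1.1, 0.91).

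Other aspartyl protease genes numbered 12, of which 6 passed the filter on low values, while the other 6 had strain means of at most 0.24 TPM. Of the 6 tested, 5 were higher in spo-11 and 4 in htp-3 against N2, where 55.6% and 39.5% of all genes were, and 0 were lower in either. The gene asp-12, which lies between asp-6 and asp-5, was at 96.7 ± 42.6 TPM in N2, 282 ± 39.4 TPM in spo-11 and 460 ± 79.1 TPM in htp-3 (SD, n = 3 each). Its log2 fold change was 1.62 in spo-11 (limma adjusted p = 0.00148), with 0.79 and no call under median-of-ratios scaling, and 2.32 in htp-3 (adjusted p = 0.000249). The gene asp-4, which acts with asp-3 in neuronal necrosis, rose by 1.05 in spo-11 (adjusted p = 0.000109), lost under median-of-ratios scaling (0.22), and was at 0.44 in htp-3 (adjusted p = 0.0569). The htp-3 value passed without N2 replicate 1 (0.57) or htp-3 replicate 3 (0.59), and with the replicate block (adjusted p = 0.0183). The gene asp-13 rose by 1.08 in htp-3 (adjusted p = 0.00571) and was at 0.01 in spo-11, or -0.82 and called lower under median-of-ratios scaling. Chosen after its values were seen, asp-17, in the run that ends with asp-1, went from 0.894 ± 0.442 TPM in N2 to 32.7 ± 13.5 TPM in spo-11 and 13.1 ± 3.68 TPM in htp-3.

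Of 4 other cathepsin B-like genes, spo-11 had 2 higher and 1 lower, beside 55.6% and 22.1% of all genes, and htp-3 had 1 higher and 0 lower, beside 39.5% and 19.7%. With 4 genes these counts are no result about the group. The gene cpr-8, next to cpr-5, was the lower one in spo-11 (-0.92, limma adjusted p = 0.00836), beside -0.95 for cpr-5. In htp-3 cpr-8 was at 0.51 (adjusted p = 0.132), and called without htp-3 replicate 2 (0.74, adjusted p = 0.0424). The gene cpr-3 rose in both, by 1.58 in spo-11 and 2.45 in htp-3 (adjusted p = 6.03e-05 and 9.55e-06). The most abundant, cpr-6, was at 870 ± 216 TPM in N2, 1002 ± 166 TPM in spo-11 and 1061 ± 162 TPM in htp-3 (SD, n = 3 each) and was not called, but was called lower in spo-11 under median-of-ratios scaling (-0.62).

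Of 4 other papain-family genes, 3 were higher in spo-11 and 4 in htp-3, beside 55.6% and 39.5% of all genes. The cathepsin L gene cpl-1 rose from 1358 ± 89.6 TPM in N2 to 2138 ± 269 TPM in spo-11 and 2309 ± 505 TPM in htp-3 (SD, n = 3 each; log2 0.65 and 0.74, limma adjusted p = 0.00178 and 0.00138), both lost under median-of-ratios scaling (-0.19 and 0.32). The cathepsin Z genes differed: cpz-2 rose by 2.21 and 1.17 (adjusted p = 2.09e-08 and 8.44e-05), and cpz-1 by 0.64 in htp-3 (adjusted p = 0.0134, lost at 0.22 under median-of-ratios scaling and at 0.47 without N2 replicate 3) with 0.05 in spo-11 (-0.79 and called lower under that scaling). Both cystatin genes, whose products inhibit cysteine proteases, were higher in both strains. The change of cpi-1 was 3.44 in spo-11 (119 ± 33.9 TPM in N2 to 1304 ± 375 TPM, SD, n = 3 each; adjusted p = 1.85e-07), kept under median-of-ratios scaling (2.61), and 1.01 in htp-3 (adjusted p = 0.0164), lost under it (0.58) and without N2 replicate 1 (0.96), N2 replicate 3 (0.84) or htp-3 replicate 3 (0.87). That of cpi-2 was 0.72 and 0.49 (adjusted p = 0.000514 and 0.0124), neither kept under it (-0.12 and 0.07), and the htp-3 call also ended without N2 replicate 3 (0.38). In dsb-2 limma called 0 of the 16 genes tested in these 4 lists, and 1 (cpr-3, 0.59) had an unadjusted p under 0.05, as did 10.6% of all genes.

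Of 13 markers and regulators of the intestine, 6 were higher and 1 lower in spo-11, beside 55.6% and 22.1% of all genes. With 13 genes, those spo-11 counts are no result about the group. The median log2 fold change of the markers in spo-11 was 0.43, beside 0.80 for all genes. In htp-3 11 were higher and 0 lower, beside 39.5% and 19.7% of all genes, with a median of 1.16 beside 0.27. The gut GATA factor genes elt-2 and elt-7, named after their values were seen, rose by 0.99 and 1.62 in spo-11 and by 0.85 and 1.19 in htp-3 (limma adjusted p = 0.00187, 2.36e-06, 0.00880 and 0.000213), though the elt-2 calls ended under median-of-ratios scaling (0.25 and 0.49), and that in htp-3 also without N2 replicate 1 (0.59). The other markers were split in spo-11. Also called higher there were ifb-2 and ifc-2, with values given below, eps-8 (1.30, limma adjusted p = 3.38e-05) and aqp-4 (0.90, adjusted p = 0.000666). The gene pho-1 was the lower one there (-0.89, limma adjusted p = 0.00278), and ges-1, nhx-2 and pept-1 were not called (0.43, 0.18 and 0.28). The brush border actin gene act-5 was at 0.38 in spo-11 (adjusted p = 0.127, called without N2 replicate 3 at 0.54) and rose by 1.61 in htp-3 (adjusted p = 5.46e-05), vha-6, a proton pump subunit gene, was at 0.19 (adjusted p = 0.401) and rose by 1.71 (adjusted p = 1.59e-05), and erm-1 passed in neither (0.04 and 0.29). Under median-of-ratios scaling vha-6 and erm-1 were called lower in spo-11. No marker was at 0 in all libraries of a strain. Their summed TPM lay between 541 and 773 in N2 and between 629 and 769 in dsb-2. It lay between 940 and 1301 in spo-11 and between 1468 and 1880 in htp-3. The summed TPM of the 9 proteases was 13.1 to 15.8 times that marker sum in spo-11, 7.48 to 10.3 times in htp-3, 8.12 to 10.3 times in N2 and 6.50 to 11.2 times in dsb-2. The ratio of htp-3 thus overlapped that of N2, and that of spo-11 lay above it in all 3 libraries. The marker sum gives most weight to abundant genes, such as act-5. That gene was at 252 ± 68.1, 326 ± 84.5 and 756 ± 117 TPM in N2, spo-11 and htp-3 (SD, n = 3 each). The less abundant ifb-2 and ifc-2 rose by 2.79 and 2.48 in spo-11 and by 1.93 and 1.85 in htp-3. The ratio therefore depends on which markers are summed. The part of intestinal content in the protease values was not tested.

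**Figure D4:**
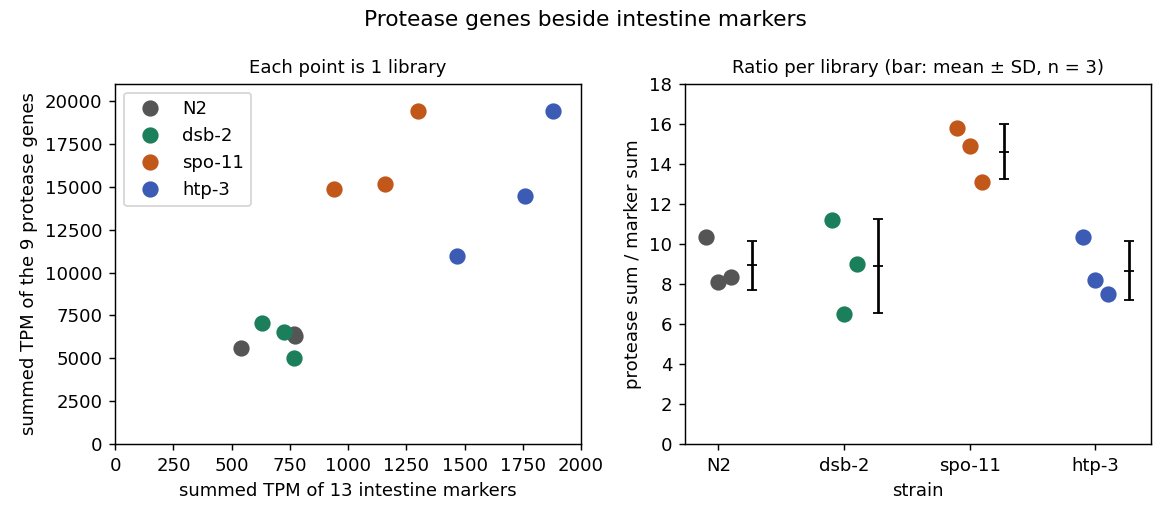
The left panel plots the summed TPM of the 9 protease genes against that of 13 intestine markers, 1 point per library, and the right panel their ratio per library with mean ± SD by strain. The ratio was 13.1 to 15.8 in spo-11 and at most 11.2 in the other strains.

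Lysosome genes were called at shares near those of all genes. Of 10, 6 were higher and 3 lower in spo-11, beside 55.6% and 22.1% of all genes (median 0.74 beside 0.80), and 3 were higher and 2 lower in htp-3, beside 39.5% and 19.7% (median 0.23 beside 0.27). The lysosomal DNase gene nuc-1 rose by 2.34 in spo-11 (limma adjusted p = 2.27e-07) and was at 0.18 in htp-3. The cystine exporter gene ctns-1 fell in both (-0.52 and -0.70, adjusted p = 0.0106 and 0.00297), the spo-11 call ending without N2 replicate 1 (-0.39), and lmp-1 was called in spo-11 (0.74, adjusted p = 0.000396, but -0.09 under median-of-ratios scaling) and not in htp-3 (0.28). Marker sums of other tissues differed between the strains as well. Summed TPM of 10 germ line and oocyte markers lay between 4461 and 4866 in N2 and between 5479 and 8295 in dsb-2. It lay between 1632 and 2022 in spo-11 and between 1549 and 3458 in htp-3. That of 9 sperm markers was highest in spo-11, at 165 to 324, against 5.80 to 16.9 in htp-3, 2.06 to 6.03 in N2 and 3.04 to 7.54 in dsb-2. Body-wall muscle markers (7 genes) summed to 3010 to 4052 TPM in spo-11 and 2226 to 3511 TPM in htp-3, against 1089 to 1476 TPM in N2. The sums of 8 neuron markers were 716 to 915, 402 to 453 and 243 to 317 TPM in the same order. Those of 6 hypodermis markers were 1391 to 1711, 2404 to 3921 and 685 to 891 TPM, most of it from the adult collagen gene col-19 (1500 ± 155, 3282 ± 817 and 744 ± 103 TPM, SD, n = 3 each). Of the 5 hypodermis markers tested, 2 were higher and 2 lower in htp-3 (median 0.12), and 4 higher and 1 lower in spo-11 (median 1.02). No marker of these lists was at 0 in all 3 libraries of a strain, and their part in the protease values was not tested.

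**Figure D5:**
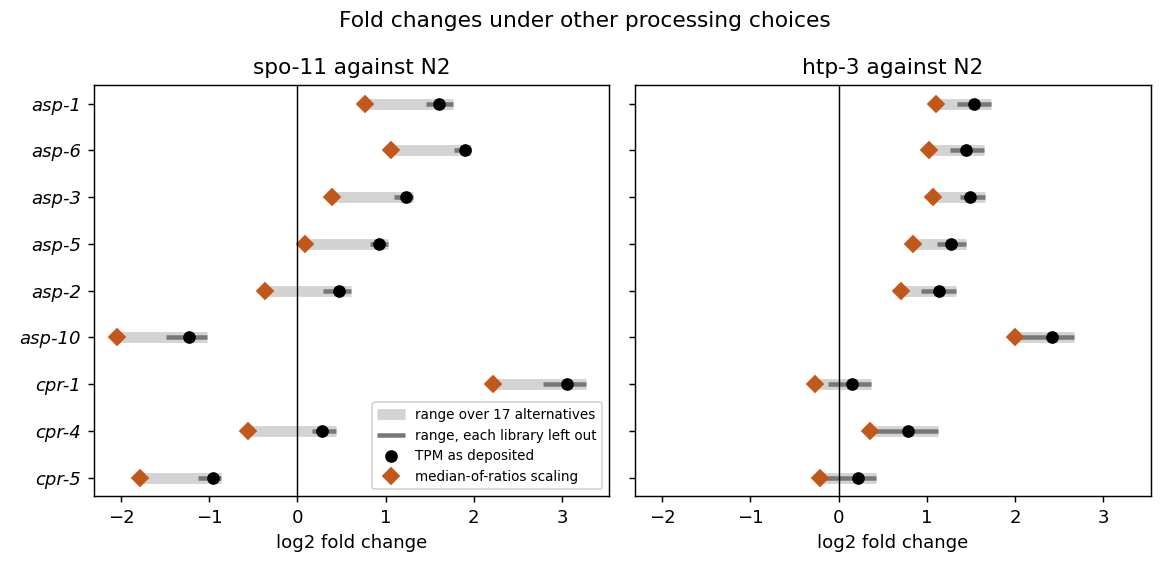
For spo-11 and htp-3 against N2, black points are log2 fold changes from TPM as deposited, diamonds those under median-of-ratios scaling, light bars the range over all 17 alternatives and dark bars the range with each library left out. In spo-11 the diamonds of asp-3 (0.39) and asp-5 (0.09) fall close to 0 while those of cpr-1 (2.22), asp-10 (-2.04) and cpr-5 (-1.79) stay far from it.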

How the data were processed

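The authors deposited 1 table per library with TPM and RPKM values, per the file headers. RPKM corrects reads for exon length and library depth, and a further deposited column, expression value, held the same numbers. Positions refer to WBcel235, named in the submitters' processing notes. The aligner, counter and strand setting were not given in the sources used here. The tables hold no counts, so the test planned for other units was used: limma (version 3.58.1, R 4.3.3), with its trend option, was run on log2(TPM + 1) of genes reaching 1 TPM in 3 or more libraries. The fit held all 12 libraries and a mean per strain, and p-values had Benjamini-Hochberg adjustment over the 13650 genes. Fold changes on this scale understate those of low genes. Depth and reads were rebuilt from the steps of the RPKM values, and the 9 proteases came out whole within 0.05 reads in all 12 libraries.

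The 9 genes, the lists and the alternatives were chosen with earlier results of these data known. Genes named outside the 9 were the mutated genes, for each member the gene with the highest correlation, and the 3 of highest mean TPM in each list. Exceptions, named after values were seen, were asp-17, col-19 and the intestine genes elt-2, elt-7, ifb-2, ifc-2, eps-8, aqp-4, pho-1, ges-1, nhx-2 and pept-1. The genes inx-10 and C15C8.7 were named for position. Same-strain libraries all differed by more than sampling noise (chi-square per degree of freedom at least 52.4). Deviations from strain means of same-numbered libraries of htp-3 and spo-11 correlated at 0.12, 0.44 and 0.23. Those of htp-3 and dsb-2 correlated at 0.36, -0.14 and -0.39. For dsb-2 and N2 the values were 0.345, 0.389 and 0.065, and for spo-11 and N2 0.14, 0.042 and 0.337. For htp-3 and N2 they were -0.1, 0.106 and 0.167, and for spo-11 and dsb-2 0.259, -0.165 and 0.036. The labels do not state a pairing, so the main fit used none, and the replicate number entered only as a block in an alternative. The fitting was tested on simulated data in which a small set of genes changed in spo-11 alone, equally in both directions. That setting does not cover shifts of most genes, such as those called in spo-11 here. P-values measure the spread between libraries called biological replicates; whether these came from separate cultures is not stated. Alternatives were other scalings, filters and pseudocounts, RPKM, limma-voom on rebuilt reads, only the strains compared, the replicate block and each library left out. Sequences of these genes were not analysed here.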

Additional observations from a re-analysis of the deposited data

How the results depend on the processing

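Of 918 recomputed fold changes of the 9 genes, 29 lost their call, 12 gained one and 1 changed sign with a call in either setting. The other 876 kept their side of the threshold, among them 28 that changed sign while called in neither setting, such as cpr-4 in spo-11 against N2 (-0.56 under median-of-ratios scaling) and cpr-1 in htp-3 against N2 (-0.27). Under median-of-ratios scaling 3 of 9 genes were called higher in spo-11 against N2, 3 in spo-11 against dsb-2 and 6 in htp-3 against spo-11. Of all 13650 genes, 6033, 6068 and 3062 were called higher there. The value that changed sign with a call was asp-2 in spo-11 against dsb-2 (-0.23). Among list genes and mutated genes in spo-11 against N2 that scaling reversed asp-13 (-0.82), cpi-2 (-0.12), cpl-1 (-0.19), cpr-6 (-0.62), cpz-1 (-0.79), erm-1 (-0.79), lmp-1 (-0.09), vha-6 (-0.64) and spo-11 (-0.65). That scaling divides all values of a library by 1 factor, so well-expressed genes moved by similar amounts. In spo-11 against N2, asp-1 went from 1.60 to 0.76, asp-2 from 0.47 to -0.37 and cpr-5 from -0.95 to -1.79. Genes with a small positive fold change therefore changed sign. Why the factors differed between strains was not tested. With a fold change of at least 2 also required, 1 gene was called lower in spo-11 against N2. With 1 library left out, htp-3 against spo-11 had 2 to 6 of the 9 genes higher and 1 to 2 lower. With every library in the fit, 8.1% of all genes were higher and 38.6% lower. The counts of 0 in dsb-2 against N2 stayed at 0 under every alternative. With the replicate number as a block, 3 genes were higher and 1 lower in htp-3 against spo-11, as without it. The block changed the call of 1 member, cpr-1 in htp-3 against dsb-2 (0.49, limma adjusted p = 0.0374). That gene was also called there by limma on RPKM (0.67, adjusted p = 0.01605) and by limma-voom (0.62, adjusted p = 0.0369). Over all genes, lower calls in dsb-2 against N2 numbered 10, but 19 with RPKM, 17 with the block, 4 with no filter, 5 with a pseudocount of 5, 3 with only those strains and 2 to 6 without N2 replicate 2 or 3 or any 1 dsb-2 library. Higher calls there fell from 26 to 15 with only those strains. Under median-of-ratios scaling lower calls were 5449 in spo-11 and 4743 in htp-3 against N2, and 5558 and 4806 against dsb-2, and higher calls in htp-3 against spo-11 were 3062 (2258 under upper-quartile scaling). A minimum of 5 TPM left 4731 higher in spo-11 against N2, 4757 against dsb-2 and 3042 lower in htp-3 against spo-11. A fold change of at least 2 left 881 lower in spo-11 against N2, 1165 against dsb-2, 2844 higher and 277 lower in htp-3 against N2, 2928 and 767 against dsb-2, and 309 and 2972 against spo-11. Without htp-3 replicate 1, 1789 genes were lower in htp-3 against N2.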
